A study of Sus scrofa with 8 samples.

Results

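PGA5, MSMB, GKN1, GKN2 and ATP4A, genes known from the gastric mucosa, were followed in porcine pancreatic ductal organoids (PPDO), which are epithelial spheres grown from ducts picked out of the digested pig pancreas. The genes were taken by symbol from the deposited count table, in which they are 5 of 30282 genes, and were picked for their behaviour between media within each line, so that their change between media is given below as a description without a test. Bulk RNA from 4 PPDO lines was sequenced after a week in complete or in differentiation medium, that is, 8 libraries with n = 4 lines in each medium. Line Em came from a pancreas before birth, lines EPN1 and EPN2 from early postnatal pancreata and line LPN from a late postnatal, adolescent pancreas. The study counts the early postnatal stage from birth to just after weaning. The donors were wild-type or INS-eGFP German landrace pigs, and the sources used here do not say which of these gave each line. Complete medium holds the growth factors EGF and FGF10, the WNT and BMP modulators WNT3a, R-spondin and noggin, prostaglandin E2 and gastrin, and differentiation medium lacks them all. Both media share the N2 and B27 supplements, the TGF-beta receptor inhibitor A83-01, the ROCK inhibitor Y-27632, nicotinamide and N-acetylcysteine. Each line is 1 culture per medium, so the stage of the donor and the line cannot be told apart, and nothing says that cultures of a line were repeated.

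The lining of the stomach is built from gland units. Pit cells at the surface secrete mucins, trefoil factors and the gastrokines GKN1 and GKN2, mucous neck cells sit below them, chief cells at the base store pepsinogens, and parietal cells acidify the lumen. PGA5 encodes pepsinogen A, the zymogen that acid converts into the protease pepsin. MSMB encodes beta-microseminoprotein, a small cysteine-rich secreted protein that is abundant in seminal plasma and is also made by mucosal epithelia, the stomach included. ATP4A encodes the catalytic alpha subunit of the gastric proton-potassium ATPase, the acid pump of parietal cells, and ATP4B encodes its beta subunit. None of these genes is a standard marker of pancreatic duct cells.

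By the RefSeq annotation of Sscrofa11.1, PGA5 lies at chr2:10244300-10252644, MSMB at chr14:90533092-90542309 and ATP4A at chr6:44984014-45057796. GKN1 at chr3:73420359-73426472 and GKN2 at chr3:73443856-73451789 are direct neighbours, and GKN3, a further gastrokine gene, follows at chr3:73461801-73468111. These are gene spans, and the counts refer to whole genes without separating exons or isoforms.

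Library totals were between 40553593 and 47910657 counts. The duct label was checked by marker levels, given as CPM, the counts relative to the library total scaled by TMM factors. KRT7 and KRT8, keratins of simple epithelia, were between 1217 and 4902 CPM in 7 libraries, and in the EPN2 library in differentiation medium they were lower, at 522 and 425 CPM. The summed level of 13 pancreatic duct genes was 5674 to 10945 CPM in complete medium and 1635 to 12767 CPM in differentiation medium, with EPN2 the lowest in both. KRT7 and KRT8 make up much of this sum, and some other listed genes varied more. SCTR had 459 CPM in Em, 51.9 in LPN, 229 in EPN1 and 2.76 in EPN2 in complete medium. In differentiation medium it had 918, 171, 525 and 0.630 CPM in the same order. CFTR had 7.67 to 337 CPM in complete and 2.96 to 128 CPM in differentiation medium. SOX9 stayed between 29.8 and 131 CPM in all libraries. Of these 13 genes, 12 were tested between media and 0 were called (edgeR quasi-likelihood test, adjusted p threshold 0.05), against 0 at an unadjusted p under 0.05, 1 with edgeR and the line as block, 0 with DESeq2 and 2 with DESeq2 and the line as block. Over all genes these fits called 6.97%, 19.9%, 17.9% and 34.9%. An unadjusted p under 0.05 in edgeR without the block was found for 3954 of all 14475 genes tested. The EPN2 differentiation library stands apart in KRT7, KRT8 and the duct sum, and EPN2 was already lowest for SCTR in complete medium. The change of each gastric gene within lines is therefore also given without EPN2. That is without both libraries of this line, an alternative chosen after seeing the data.

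PGA5 (ENSSSCG00000013092) was low in complete medium and high in differentiation medium in every line. In complete medium it had 2.47 CPM in Em, 0.122 CPM in LPN, 2.52 CPM in EPN1 and 1.54 CPM in EPN2, from 114, 5, 105 and 68 counts. In differentiation medium it had 113 CPM in Em, 7.55 CPM in LPN, 47.9 CPM in EPN1 and 221 CPM in EPN2, from 5502, 362, 2117 and 9456 counts. All 4 libraries in differentiation medium were thus above all 4 in complete medium, and the lowest of the former, LPN, was still above the highest of the latter. The level was 46.0-fold higher in Em, 62.0-fold in LPN, 19.0-fold in EPN1 and 144-fold in EPN2. The mean was 1.66 ± 1.12 CPM (SD, n = 4) in complete and 97.4 ± 93.1 CPM (SD, n = 4) in differentiation medium. On the log2 CPM scale with a prior count of 2, the change within lines was 5.59 ± 1.19 (SD, n = 4), and 5.08 without EPN2.

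MSMB (ENSSSCG00000010400) had the highest counts of the 5 genes. In complete medium it had 71.6 CPM in Em, 5.82 CPM in LPN, 17.1 CPM in EPN1 and 45.6 CPM in EPN2, and in differentiation medium 2252 CPM in Em, 876 CPM in LPN, 1972 CPM in EPN1 and 831 CPM in EPN2. The media did not overlap, and the counts behind these levels ran from 239 to 3308 in complete and from 35625 to 109257 in differentiation medium. The ratio between media was 31.5 in Em, 150.5 in LPN, 116 in EPN1 and 18.2 in EPN2. The lines with the lowest starting levels, LPN and EPN1, had the highest ratios. Since the starting level is the denominator of the ratio, low starting levels favour high ratios, and this order is no separate result. The mean was 35.0 ± 29.6 CPM (SD, n = 4) in complete and 1483 ± 736 CPM (SD, n = 4) in differentiation medium. The log2 change within lines was 5.81 ± 1.46 (SD, n = 4), and 6.35 without EPN2. The table holds MSMB as a single row with the isoform suffix, and its 8 estimated counts were not whole numbers, which salmon gives where it divides reads between transcripts.

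The gastrokines GKN1 (ENSSSCG00000035529) and GKN2 (ENSSSCG00000038802), secreted by pit cells, had 0 counts in all 4 libraries in complete medium. In differentiation medium GKN1 had 4 counts in Em, 10 in LPN, 27 in EPN1 and 12 in EPN2, or 0.0825, 0.209, 0.611 and 0.280 CPM. GKN2 had 6 counts in Em, 8 in LPN, 73 in EPN1 and 21 in EPN2, or 0.124, 0.167, 1.65 and 0.490 CPM. Both genes were thus detected in every differentiation library and in none of the complete libraries, but at low counts. The upper limit for 0 counts, 3 counts, lies at 0.0618 to 0.0731 CPM over the 8 libraries. Against the mean of that limit over the complete libraries, GKN1 was at least 4.25-fold higher and GKN2 at least 8.75-fold higher in differentiation medium. EPN1 carried much of both bounds, which were 2.74-fold and 3.75-fold without EPN1 in differentiation medium. The log2 change within lines was 2.68 ± 0.98 (SD, n = 4) for GKN1 and 3.24 ± 1.52 (SD, n = 4) for GKN2, and 2.62 and 3.13 without EPN2. Of 24670 genes with any count, 3 genes (0.0122%) had 0 counts in every complete library and over 3 counts in every differentiation library. These were GKN1, GKN2 and PTGFR, the receptor for prostaglandin F2-alpha, which was chosen after its values were seen. GKN1 and GKN2 were picked on this contrast and the condition follows their values, so nothing is read from this share. The third gastrokine, GKN3, had 0 counts in all 8 libraries. ANTXR1, the gene before GKN1, was at 25.4 ± 14.3 CPM (SD, n = 4) in complete and 50.4 ± 14.5 CPM (SD, n = 4) in differentiation medium. It was higher in 4 of 4 lines. Its adjusted p was 0.159 in edgeR, 0.0616 in edgeR with the line as block and 0.0934 in DESeq2, none past the threshold. DESeq2 with the block called it higher (adjusted p = 0.0047), a fit that called 34.9% of all genes.

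ATP4A (ENSSSCG00000002902) moved the other way and stayed at low counts. In complete medium it had 37 counts in Em, 36 in LPN, 54 in EPN1 and 16 in EPN2, or 0.801, 0.877, 1.30 and 0.362 CPM. In differentiation medium it had 25 counts in Em, 6 in LPN, 7 in EPN1 and 10 in EPN2, or 0.515, 0.125, 0.158 and 0.233 CPM. It was lower in differentiation medium in 4 of 4 lines, but the media overlapped, because Em in differentiation medium lay above EPN2 in complete medium. The level in complete medium was 1.55-fold that in differentiation medium in Em, 7.01-fold in LPN, 8.20-fold in EPN1 and 1.55-fold in EPN2. The mean was 0.834 ± 0.384 CPM (SD, n = 4) in complete and 0.258 ± 0.177 CPM (SD, n = 4) in differentiation medium. The log2 change within lines was -1.58 ± 1.17 (SD, n = 4), and -1.92 without EPN2. All 8 estimated counts of ATP4A were fractional too, so that reads shared with other transcripts cannot be told apart from its own. HAUS5, the gene after ATP4A, was also lower in 4 of 4 lines. Its adjusted p was 0.164 in edgeR, 0.0883 in edgeR with the line as block and 0.116 in DESeq2. DESeq2 with the block called HAUS5 lower (adjusted p = 0.0339), a fit that called 34.9% of all genes. Its log2 change was -0.40 in Em, -1.42 in LPN, -1.24 in EPN1 and -0.08 in EPN2. As for ATP4A, the larger falls were in LPN and EPN1. TMEM147, the gene before ATP4A, was higher in 4 of 4 lines (adjusted p = 0.278 in edgeR and 0.0799 in DESeq2 with the block). Whether the course of ATP4A is tied to that of HAUS5 was not tested.

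**Figure D1:**
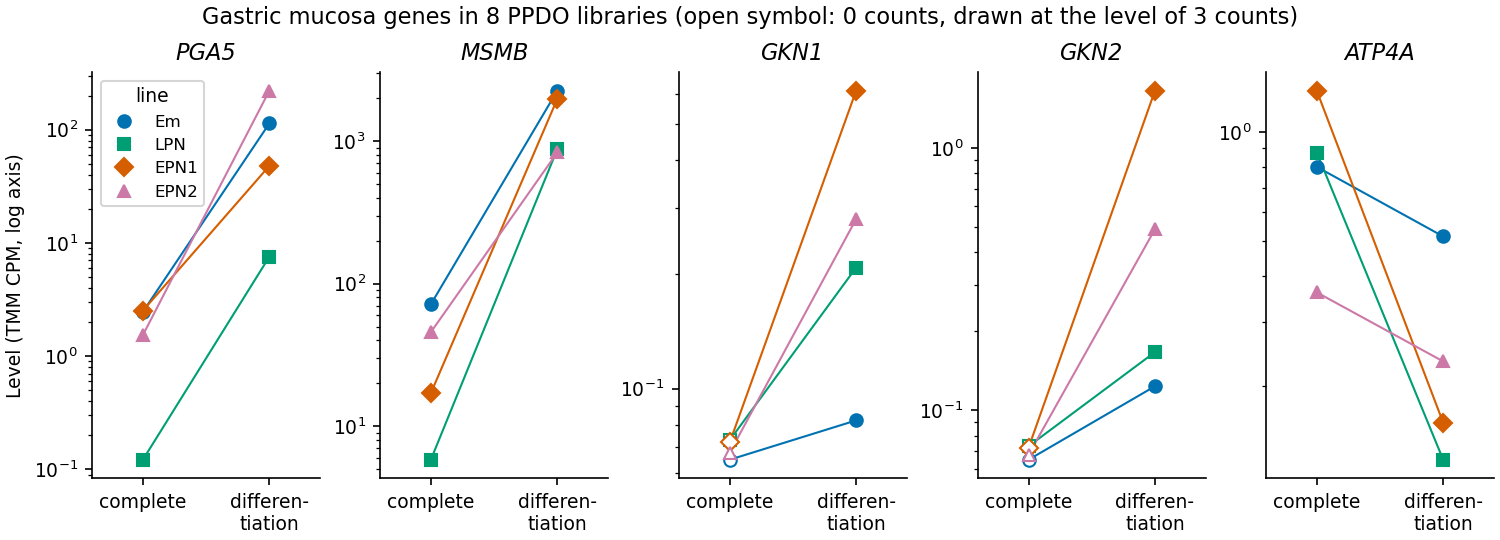
Levels of the 5 gastric mucosa genes in 8 libraries, as CPM scaled by TMM factors on a log axis that differs between panels. Each symbol is 1 library, lines join the media of 1 PPDO line, and open symbols are 0 counts drawn at the level of 3 counts. PGA5, MSMB, GKN1 and GKN2 lie higher in differentiation medium without overlap, and ATP4A lies lower in each line with overlap.

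Put together, 4 of 5 genes had all differentiation libraries above all complete libraries, and 1 of 5 was lower in each line. Among 14475 genes that passed the edgeR expression filter, 8.82% had all 4 differentiation above all 4 complete libraries, 9.98% the reverse, 23.9% were higher in 4 of 4 lines and 24.2% lower in 4 of 4 lines. Because the 5 genes were picked on this contrast, nothing is read from their count against these shares. Of the 5 genes, PGA5, MSMB and ATP4A passed the filter, and GKN1 and GKN2 did not, since their counts were too low. In a bulk library, fewer cells of a type and less RNA per cell cannot be told apart, so each level is that of the whole culture.

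The 4 lines differed in how far each gene changed. EPN2 had the highest log2 change of PGA5 (7.13) and the lowest of MSMB (4.19), and LPN the highest of MSMB (7.22). EPN1 had the highest log2 change of GKN1 (3.87) and GKN2 (5.24) and the lowest of PGA5 (4.22). For ATP4A the log2 change was -2.44 in LPN, -2.72 in EPN1, -0.59 in Em and -0.55 in EPN2. No line had the largest change for all 5 genes. With 1 culture per line and medium, these differences between lines have no replicate check.

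**Figure D2:**
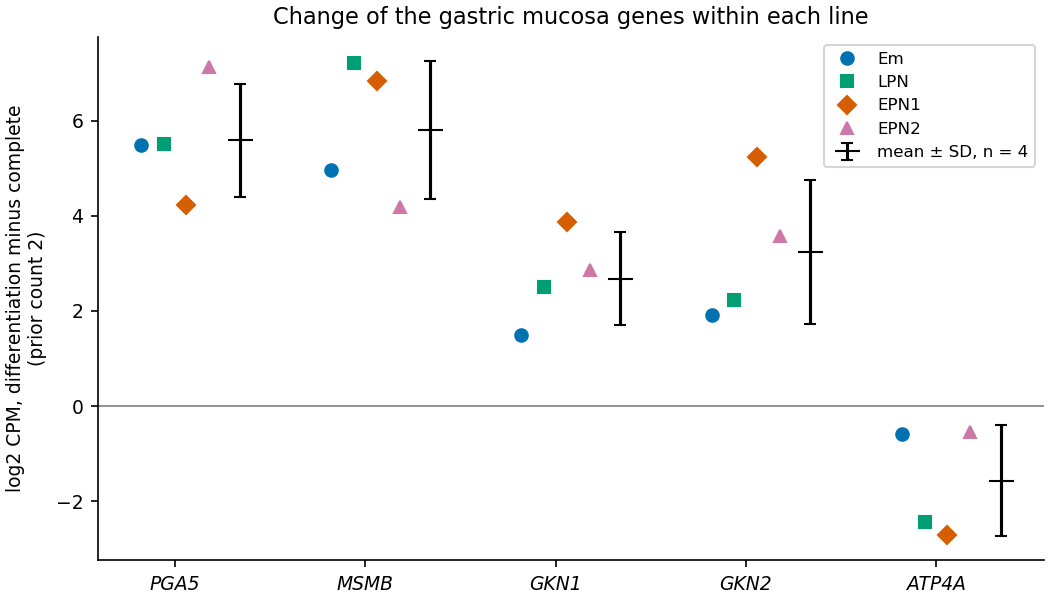
Change of each gene within each line, as log2 CPM in differentiation minus complete medium with a prior count of 2. Symbols are lines, and the black bar is the mean ± SD of 4 lines, which is 5.59 for PGA5, 5.81 for MSMB, 2.68 for GKN1, 3.24 for GKN2 and -1.58 for ATP4A. The values of GKN1 and GKN2 rest on 0 counts in complete medium and depend on the prior count.

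The order of the lines was then compared between media, a contrast not used to pick the genes, though all 8 columns were known at that time. LPN had the lowest PGA5 level in both media. In complete medium the order was EPN1, Em, EPN2 and LPN, with a 20.7-fold range, and the exact (Clopper-Pearson) 95% counting intervals of EPN1 (2.06 to 3.05 CPM) and Em (2.04 to 2.96 CPM) overlapped. In differentiation medium the order was EPN2, Em, EPN1 and LPN, with a 29.2-fold range. The line term of PGA5, in a fit with the medium as the other term, had an adjusted p of 0.0844 (edgeR quasi-likelihood F-test, unadjusted p = 0.0086) and missed the threshold, whereas DESeq2 gave an adjusted p of 5.81e-06, the fit with no filter 0.0459 and the fit without EPN2 in complete medium 0.0304. Over all edgeR and DESeq2 alternatives the adjusted p lay between 5.81e-06 and 0.351. Across all genes tested, 5.14% were called for the line.

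The range of MSMB over lines was 12.3-fold in complete and 2.71-fold in differentiation medium. Em was highest in both media, and the lowest line was LPN in complete and EPN2 in differentiation medium. In differentiation medium, LPN (868 to 885 CPM) and EPN2 (823 to 840 CPM) were close, with intervals that cover counting error only. The line term of MSMB had an adjusted p of 0.289 and that of ATP4A of 0.625 in the edgeR fit, neither past the threshold.

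GKN1 and GKN2 had the same order of lines in differentiation medium, from EPN1 through EPN2 and LPN to Em. Their ranges were 7.41-fold and 13.3-fold. For GKN1 the counting intervals of neighbours in this order overlapped, and for GKN2 that of EPN1 (1.29 to 2.08 CPM) lay above that of EPN2 (0.303 to 0.749 CPM) while the other neighbours overlapped. ATP4A went from EPN1 through LPN and Em to EPN2 in complete medium and from Em through EPN2 and EPN1 to LPN in differentiation medium, and in both orders the intervals of neighbours overlapped. So for ATP4A the order of neighbouring lines was not resolved at this depth.

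Genes with the most similar course were searched by Pearson correlation of log2 CPM over the 8 libraries among 12720 tested genes with a symbol. These are descriptions, since the libraries share lines and media. For PGA5 they were SSNA1 (r = 0.981), RBM8A (r = 0.978) and TM2D2 (r = 0.973). Their levels moved little, with SSNA1 at 11.0 to 12.9 CPM in complete and 14.8 to 18.2 CPM in differentiation medium, while PGA5 moved by an order of magnitude or more. For MSMB they were RAB11B (r = 0.984), FER1L6 (r = 0.981) and LLGL2 (r = 0.979). Of these FER1L6, a ferlin family gene, changed on a scale like that of MSMB, from between 0.146 and 2.53 CPM in complete to between 19.5 and 55.1 CPM in differentiation medium. ATP4A was most like PSMA2 (r = 0.974), KIF22 (r = 0.972) and GGCT (r = 0.970). Between the members themselves, MSMB and PGA5 had r = 0.899, which placed MSMB at rank 102 for PGA5 and PGA5 at rank 268 for MSMB. Both genes were picked for their change between media, and that change enters this r. The value is therefore no independent sign of a shared course.

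The relatives of PGA5 and ATP4A did not all move with them. PGC, the pepsinogen of the C type, had at most 1 count in any library. PGB, a further pepsinogen, was at 0.618 ± 0.75 CPM (SD, n = 4) in complete and 0.36 ± 0.189 CPM (SD, n = 4) in differentiation medium (edgeR log2 fold change -0.77 with SE 0.84, adjusted p = 0.586). ATP4B, which pairs with ATP4A in the acid pump, had 9, 7, 2 and 5 counts in complete and 17, 16, 13 and 12 counts in differentiation medium in Em, LPN, EPN1 and EPN2. It thus had higher values in 4 of 4 lines where ATP4A had lower ones, but did not pass the test (log2 fold change 1.24, SE 0.46, edgeR adjusted p = 0.134). ATP12A, the non-gastric proton-potassium ATPase alpha subunit, had 1, 1, 5 and 148 counts in complete and 38, 344, 51 and 686 in differentiation medium in the same order of lines. Its log2 fold change of 2.83 (SE 1.67) had an adjusted p of 0.307 without and 0.0387 with the line as block in edgeR.

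It was next asked how many other genes of the gastric cell types differed between media. Of 56 genes in 6 lists, 43 were matched to a row and 26 passed the filter; MUC5AC, MUC6, LIPF, CTSE and SOX2 are among those not matched and were not analysed here. Of the 26 genes, 1 was called (lower) and 0 were called higher, against 6.97% of all genes called in either direction, 2.87% called higher and 4.1% called lower. An unadjusted p under 0.05 in edgeR was found for 5 of the 26 genes, beside 3954 of all 14475 genes tested. With the line as block, edgeR called 6 (4 higher and 2 lower) against 19.9% of all genes (9.48% higher and 10.4% lower). DESeq2 called 3, all lower, against 17.9% of all genes (8.86% higher and 9.01% lower), and DESeq2 with the block called 10 of these 26 genes (6 higher and 4 lower) against 34.9% (18.2% higher and 16.7% lower). The median log2 fold change of the 26 genes was 0.27, beside 0.01 over all 14475 genes tested.

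The pit cell genes, the class to which GKN1 and GKN2 belong, were those in which the fit with the line as block gave the most calls. TFF1, a trefoil factor co-secreted with pit cell mucin, had 12.9 CPM in Em, 0.292 CPM in LPN, 2.45 CPM in EPN1 and 259 CPM in EPN2 in complete medium. In differentiation medium it had 294 CPM in Em, 108 CPM in LPN, 160 CPM in EPN1 and 647 CPM in EPN2. It was higher in 4 of 4 lines, but EPN2 in complete medium lay above LPN and EPN1 in differentiation medium. In edgeR its log2 fold change was 2.14 (with SE 1.66, adjusted p = 0.437) without and 4.99 (adjusted p = 0.0492) with the line as block, and 5.86 (adjusted p = 0.0506) without EPN2 in complete medium. CAPN8 and CAPN9, calpains of the gastric surface epithelium, and FOXQ1, a transcription factor gene of surface mucous cells, had the same course, with EPN2 highest in both media and values higher in 4 of 4 lines. Their adjusted p was 0.220, 0.385 and 0.128 without the block and 0.0268, 0.0377 and 0.0314 with it. Without EPN2 in complete medium it was 0.0139, 0.0310 and 0.0165, and with any other library left out the edgeR fit without the block called none of the 3 (0.255 to 0.373, 0.380 to 0.555 and 0.143 to 0.256). PSCA, also listed with pit cells, had lower CPM in 4 of 4 lines (log2 fold change -3.30, SE 1.11, edgeR adjusted p = 0.107 without and 0.0542 with the block). Its counts were 6, 33, 142 and 43 in complete and 6, 1, 15 and 2 in differentiation medium (Em, LPN, EPN1, EPN2). In Em the count was thus the same in both media, with a log2 change of -0.05. DESeq2 called PSCA lower both without (adjusted p = 0.0135) and with the block (0.00232), and its log2 fold change in edgeR was -2.21 without EPN1 in complete medium. Of the 5 pit cell genes tested, edgeR therefore called 0 without the block and 4 (all higher) with it. DESeq2 called 1 (PSCA, lower) without the block and 5 (4 higher and 1 lower) with it. In edgeR without the block, 2 of the 5 had an unadjusted p under 0.05, beside 3954 of all 14475 genes tested. The median log2 fold change of the 5 genes was 2.09.

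**Figure D3:**
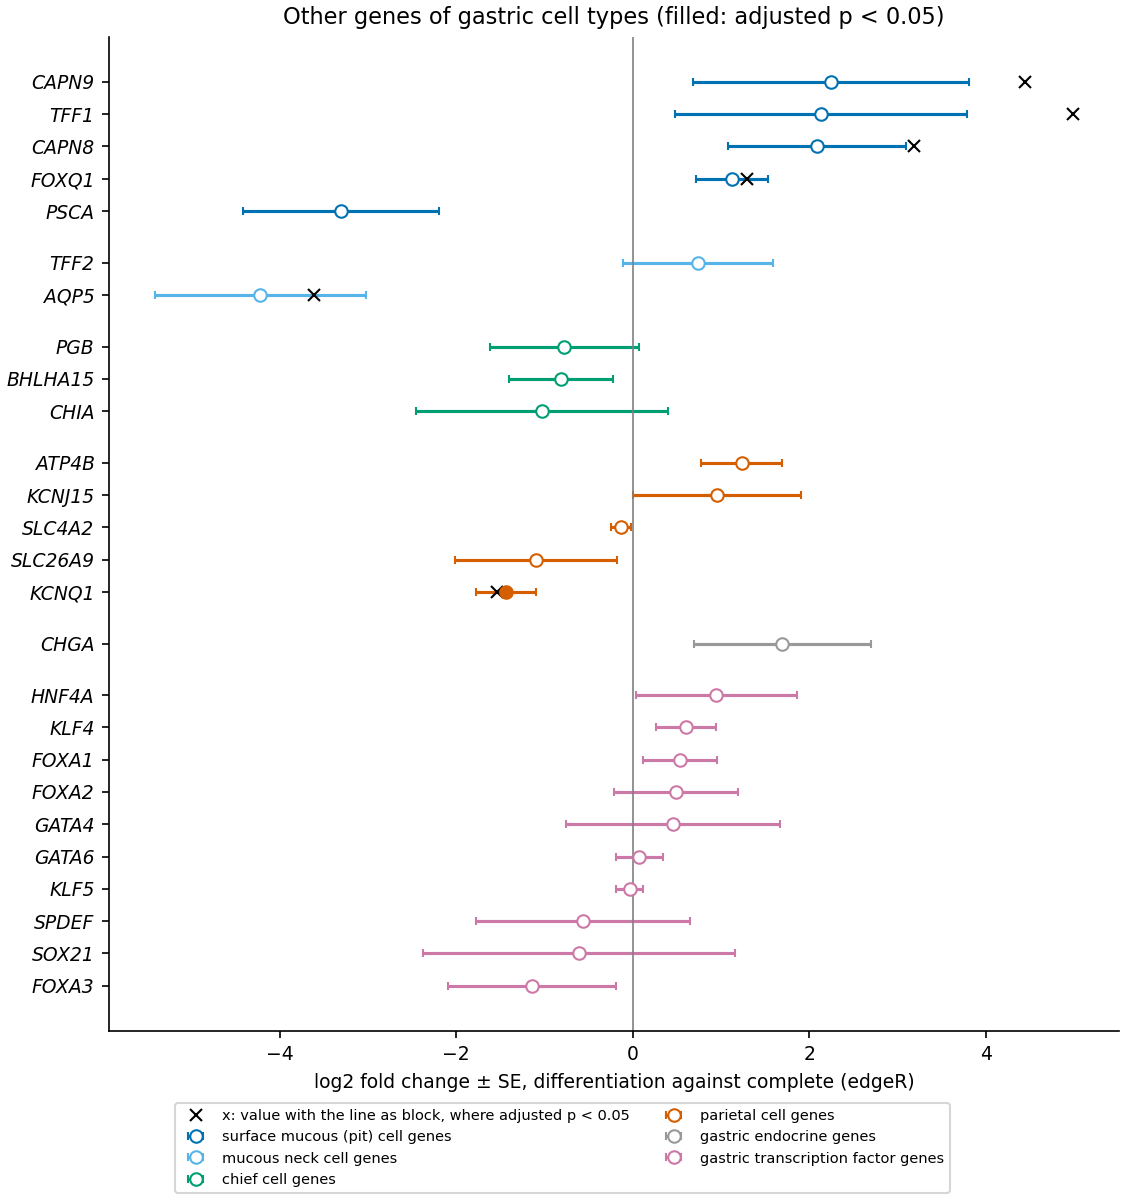
Log2 fold change (differentiation against complete medium, edgeR, bars are SE) of 26 other genes of gastric cell types, coloured by list. Filled circles passed an adjusted p of 0.05 (KCNQ1 at -1.43), and crosses give the value with the line as block where that fit passed. The 4 crosses on the right are the pit cell genes CAPN9, TFF1, CAPN8 and FOXQ1.

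Among parietal cell genes, the class of ATP4A, KCNQ1, a potassium channel gene that is also used by many other epithelia, fell between media (log2 fold change -1.43, SE 0.34, edgeR adjusted p = 0.046). It had 266 to 407 CPM in complete and 57.8 to 177 CPM in differentiation medium, without overlap. That call was lost with no filter on low counts (adjusted p = 0.0607) and when 7 of the 8 libraries were left out in turn (0.0515 to 0.120, with log2 fold changes of -1.29 to -1.66), and kept without EPN2 in differentiation medium (0.0408). It was also kept in edgeR with the line as block (0.0202), in DESeq2 (0.00284) and in DESeq2 with the block (1.35e-06). SLC4A2, an anion exchanger, was at 102 ± 13.0 CPM (SD, n = 4) and 93.2 ± 1.80 CPM (SD, n = 4), and KCNJ15, a potassium channel gene, was not called (edgeR log2 fold change 0.96 with SE 0.96, adjusted p = 0.551; 0.12 without LPN in differentiation and 1.81 without LPN in complete medium). SLC26A9, a chloride transporter gene, had lower values in 4 of 4 lines and passed only in DESeq2 with the block (adjusted p = 0.0101; edgeR 0.473 without and 0.0861 with the block, DESeq2 0.434). Of 5 parietal cell genes tested, edgeR called 1 lower and 0 higher, DESeq2 with the block called 2 lower, and their median log2 fold change was -0.13.

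Chief cell genes, the class of PGA5, gave 0 calls among 3 tested in the edgeR and DESeq2 fits with and without the block, and 0 at an unadjusted p under 0.05. CHIA, an acidic chitinase gene, ran from 9.70 to 413 CPM in complete and from 1.82 to 114 CPM in differentiation medium and was higher in 2 lines and lower in 2, while BHLHA15, a transcription factor gene of secretory cells, was at 0.592 ± 0.363 CPM (SD, n = 4) and 0.337 ± 0.165 CPM (SD, n = 4). The mucous neck cell list had 2 genes tested and 0 called in edgeR, against 1 at an unadjusted p under 0.05 and 1 with DESeq2, which was AQP5. Of these AQP5, a water channel gene, was lower in 4 of 4 lines (log2 fold change -4.22, SE 1.19, edgeR adjusted p = 0.0724 without and 0.0253 with the block). Em in complete medium, with 753 counts against 35 to 98 in the other complete libraries, carried part of that change, which was -2.38 (adjusted p = 0.127) without it. TFF2 had an adjusted p of 0.606. Gastrin is absent from differentiation medium, and the transcript of its own gene, GAST, had between 1 and 21 counts in the 8 libraries. CHGA was the 1 gastric endocrine gene tested and was not called (edgeR adjusted p = 0.308, unadjusted p over 0.05, and DESeq2 adjusted p = 0.227), and GHRL, the ghrelin gene, was at or under 0.171 CPM throughout.

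Of 10 genes for transcription factors of the gastric epithelium, edgeR called 0 and 0 had an unadjusted p under 0.05, DESeq2 called 0, and DESeq2 with the block called 2, GATA4 and KLF4 (higher). KLF5 was at 454 ± 65.3 CPM (SD, n = 4) in complete and 443 ± 54.0 CPM (SD, n = 4) in differentiation medium. GATA6 was at 111 ± 33.7 CPM (SD, n = 4) and 117 ± 27.2 CPM (SD, n = 4), and KLF4 was not called (edgeR log2 fold change 0.60 with SE 0.34, adjusted p = 0.287). GATA5, BARX1 and NKX6-3 were at or under 0.210 CPM in every library.

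**Figure D4:**
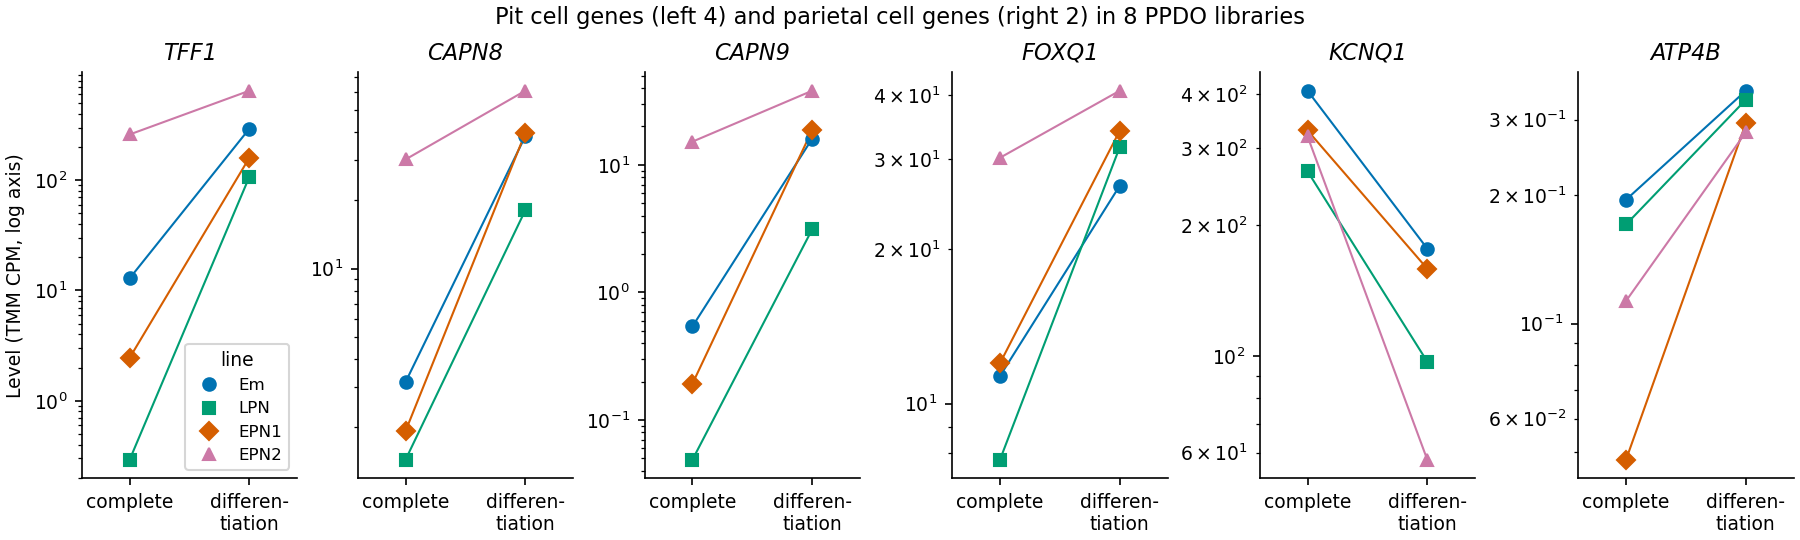
Levels of 4 pit cell genes (TFF1, CAPN8, CAPN9, FOXQ1) and 2 parietal cell genes (KCNQ1, ATP4B) in 8 libraries, as CPM scaled by TMM factors on a log axis that differs between panels. Each symbol is 1 library and lines join the media of 1 PPDO line. EPN2 in complete medium stands above the other complete libraries in the 4 pit cell genes, KCNQ1 is lower and ATP4B higher in differentiation medium in each line.

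Markers of other cells that a pancreatic culture could hold were counted beside these values. The intestinal epithelium list had 14 genes matched, 7 tested in edgeR and 0 called, and a summed level of 82.6 to 968 CPM in complete and 271 to 639 CPM in differentiation medium, led by TFF3, VIL1 and LGALS4. Acinar cell genes had 11 matched, of which 4 had no count in any library, and 0 of 2 tested were called, with a sum of 124 to 156 CPM in complete and 148 to 319 CPM in differentiation medium that was nearly all CTRC. Stromal and smooth muscle genes summed to at most 9.98 CPM, with 0 of 3 tested called. Endothelial genes summed to 16.1 to 44.7 CPM with 0 of 4 called, and immune cell genes to 8.10 to 94.3 CPM with 0 of 3 called. At an unadjusted p under 0.05, passed by 3954 of all 14475 genes tested, edgeR gave 0 intestinal, 1 acinar, 1 stromal, 1 endothelial and 0 immune genes. With the line as block it called 1 stromal gene, PDGFRB (lower), and 0 of the other 4 lists. Among the genes that passed the edgeR filter, DESeq2 called 1 acinar gene, CTRC (higher), and 1 stromal gene, PDGFRB (lower), and the genes called by DESeq2 with the block include LGALS4 of the intestinal list, CTRC, PDGFRB and the endothelial gene TEK (higher). Some listed genes did not pass the edgeR filter but were called by DESeq2, and they are named here after their values were seen. FABP1, the liver-type fatty acid binding protein gene of enterocytes, had 1, 1, 0 and 1 counts in Em, LPN, EPN1 and EPN2 in complete medium and 216, 4, 236 and 28 in differentiation medium, without overlap (DESeq2 adjusted p = 4.14e-06). GUCA2B, the uroguanylin gene, had 2, 1, 2 and 1 counts in complete and 123, 195, 389 and 0 in differentiation medium (1.49e-05), and APOB, an apolipoprotein gene, 0, 1, 0 and 0 against 53, 1, 96 and 1 (0.00228). Other genes of the same list had lower means in differentiation medium, with MUC2 at 44.0 and 24.0 CPM and TFF3 at 186 and 163 CPM in complete and differentiation medium, and CDX2 was lower in 3 of 4 lines. Of the stromal genes, the collagen gene COL3A1 had 1, 2, 1 and 0 counts in complete and 244, 8, 268 and 2 in differentiation medium (5.88e-05), and the growth factor receptor gene PDGFRA 2, 4, 1 and 4 against 14, 29, 25 and 6 (0.00532). DESeq2 with the block called these 5 genes too, and COL1A2 (adjusted p = 0.0305). The part of other cells in the levels of PGA5, MSMB, GKN1, GKN2 and ATP4A was not tested.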

How the data were processed

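RNA of 8 PPDO libraries was poly(A) selected and sequenced on a NovaSeq X+, and the authors ran an nf-core pipeline with salmon on a pig genome with their own annotation. The values deposited are estimated counts, and the submitters' notes list the builds Sscrofa11.1 and GRCh38. The differentially expressed genes of the study came from DESeq2. Library totals were 40553593 to 47910657, and 78.6% of values above 0 were whole within 1e-06. The study's methods name salmon's gene length scaled counts as the DESeq2 input; whether the deposited table is that output was not settled from its values.

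The 56060 rows, 26046 with the suffix -iso and 25770 with -ext, were summed per gene and rounded, and 8 reporter transgene rows (0.00142% of counts) were left out. Symbols came from the table, with 529 added by identifier from a gene name table. Media followed the sample titles and the study's methods (another label names endocrine induction medium for all 8 samples), and lines followed the column names; the replicate numbers were not matched to columns. No column was left unused and 0 pairs of libraries were identical. Once each medium's mean was subtracted, libraries of the same line had r = 0.400 to 0.657 (4 pairs) and of different lines -0.479 to 0.242 (12 pairs), so the line served as replicate block in an alternative fit.

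Media were compared with edgeR 4.0.16 in R 4.3.3 (TMM factors 0.935 to 1.06, default expression filter, quasi-likelihood test, Benjamini-Hochberg over 14475 genes, threshold 0.05), which called 1009 genes (416 higher, 593 lower), and lines with an F-test of the 3 line terms, which called 744. DESeq2 1.42.0, DESeq2 size factors, no filter, another prior count and leaving out each library were alternatives. Fits were tested on simulated data. CPM are scaled by TMM factors, log2 CPM use a prior count of 2, and 95% intervals and the floor of 3 counts cover counting error only. Nothing says the libraries are separate cultures beyond the line, so p-values measure the spread between these libraries.

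The 5 genes, the gene lists and the tests were chosen with earlier results of these data known. Named were the 5 genes, in each list up to 6 called genes and the 3 with the highest mean CPM, and the 3 genes most like each tested member; CAPN9, PSCA, ATP4B, ATP12A, PGC, PTGFR, ANTXR1, GKN3, GATA4, SLC26A9, MUC2, CDX2, ANXA10, CBLIF, FABP1, GUCA2B, APOB, PDGFRA, GATA5, BARX1 and NKX6-3 were added after their values were seen or as relatives and neighbours. HAUS5, TMEM147, SCTR, CFTR and SOX9 were added in the same way. Gene positions are from RefSeq.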

Additional observations from a re-analysis of the deposited data

Results flagged for a closer look

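The log2 change of GATA6 was -0.0125 in Em and positive in the 3 postnatal lines, and that of KCNJ15 was -1.19 in Em and positive in the 3 postnatal lines; neither difference between Em and the other lines was tested. KLF5 in complete medium had EPN2 apart from the other lines, with a gap of 0.838 of the range on the log2 CPM scale, above Dixon's critical value for 4 samples, which chance passes in about 1 of 20 groups.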

How the results depend on the processing

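The count of genes called between media was 1009 and became 2884 with the line as replicate block, 3001 with DESeq2, 5609 with DESeq2 and the block and 506 with no filter; leaving out each library gave 70 (without EPN1 in differentiation medium) to 1199. Other gastric genes called were 1, against 6 with the block, 3 with DESeq2, 11 with DESeq2 and the block (1 of them, ANXA10, outside the 26 genes above), 0 with no filter and 0 to 3 when libraries were left out. Lines called 744 genes, 4669 with DESeq2, 1163 with no filter and 24 (without EPN1 in differentiation medium) to 969 with libraries left out. PGA5, MSMB and ATP4A kept their direction under every alternative run; leaving out 1 library, which breaks the pair of its line, or both libraries of a line, an alternative chosen after seeing the data, gave log2 changes of 4.66 to 6.54, 5.13 to 6.35 and -1.93 to -1.19, and for GKN1 and GKN2 2.29 to 3.07 and 2.57 to 3.68. With both libraries of a line left out PGA5 stayed between 5.08 and 6.04. The 5 genes were picked on this contrast and changed the same way in 4 of 4 lines, so a kept direction is no independent check. The block changed no call between media among the named genes of the gastric lists other than those given with it above. A prior count of 0.5 gave 4.46 for GKN1 and 5.07 for GKN2. Signs turned when a library was left out for CHIA (-1.59 to 1.62), PGB (-1.15 to 0.53), GATA6 (-0.10 to 0.22) and KLF5 (-0.13 to 0.031), none past the threshold; the cause was not tested. Counts of 0 to 73 limit what GKN1 and GKN2 can show.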

Other observations

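ANXA10, an annexin gene of the pit cell list that did not pass the expression filter, was chosen after its values were seen. It had 0.130 CPM in Em, 0 in LPN, 0.0240 CPM in EPN1 and 0 in EPN2 in complete medium, and 3.69 CPM in Em, 0 in LPN, 2.53 CPM in EPN1 and 0 in EPN2 in differentiation medium. In DESeq2 its adjusted p was 0.188 without and 0.0256 with the line as block. It was thus detected in the Em and EPN1 cultures and in no library of LPN or EPN2. CBLIF, the gene of the gastric intrinsic factor, had 0.577 CPM in Em, 0.292 CPM in LPN, 0.204 CPM in EPN1 and 0 in EPN2 in differentiation medium, and at most 0.136 CPM in complete medium. The counts were 6, 0, 4 and 6 in complete and 28, 14, 9 and 0 in differentiation medium in the same order. CBLIF was thus higher in 3 lines and lower in EPN2. It was not called in DESeq2 (adjusted p = 0.408 without and 0.509 with the block).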
